A study of Mus musculus with 14 samples.

Results

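The Skint genes (selection and upkeep of intraepithelial T cells) were followed across stem cell populations, ages and cell classes of mouse back skin. The 10 genes Skint1 to Skint10 were taken by symbol from the RNA-seq count tables. All 10 were among the 47729 genes listed, and all 10 were among the 21464 genes that passed a filter on low counts. Groups were female mice aged 24 months and young female mice aged 2 months, with no treatment or transgene named in the labels. The labels write the strain as C57B8 in one place and as C57B6 in another. Epidermal stem cells (EpdSC) were sorted as lineage-negative, integrin α6-high, CD34- Sca1+ cells of trypsin-digested back skin. The hair follicle counterpart (HFSC) was gated from the same fraction as CD34+ Sca1-. Each population and age had 2 RNA-seq libraries and 1 ATAC-seq library, and each age had 1 10x single-cell library of lineage-negative, integrin α6-positive cells. Whether replicates are different animals is not stated, so each p reflects only how far these libraries spread, which may be technical.

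Skint proteins are membrane proteins of the butyrophilin-like family, built from immunoglobulin-type domains and several membrane-spanning segments. Skint1, made by thymic epithelium and keratinocytes, is required for the selection of the dendritic epidermal T cells, the gamma-delta T cells that live between the keratinocytes of mouse epidermis. These T cells survey keratinocytes for stress and take part in wound repair. The other members arose as neighbouring copies of the same ancestral gene, and their single roles are less well defined.

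RNA libraries held 25126808 to 35905505 counts. Levels are given as CPM, counts scaled to a library total of 1000000. The sort marker Cd34 had 0.34 to 1.81 CPM in the 4 EpdSC libraries, against 1088 and 1194 CPM in aged HFSC and 1807 and 1715 CPM in young HFSC. Ly6a, which encodes Sca1, had 132.6 to 217.8 CPM in EpdSC and 0.40 to 1.97 CPM in HFSC, so both sorts matched their labels. Among T cell markers, Cd3e had 0.079 to 0.592 CPM over the 8 libraries and Trdc, the constant region of the T cell receptor delta chain, 0.088 to 0.716 CPM. T cell transcripts were thus near 0 in the sorted cells. In bulk libraries, fewer cells of a type and less RNA per cell cannot be told apart.

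The 10 genes lie in 1 array on chromosome 4 (GRCm38.p6, positions 111919555 to 113999503), in the order Skint8, Skint7, Skint1, Skint4, Skint3, Skint9, Skint2, Skint10, Skint6 and Skint5. A further relative, Skint11, follows them. RefSeq gave 11 promoter windows for the 10 genes, since Skint4 has 2 annotated starts. Each window holds 250 bases before the start and 50 after it. The windows of Skint1 and Skint7, for the genes with the largest differences between populations, and of both Skint4 starts, for the gene that ran the other way, are shown 5′ to 3′. Capitals mark matches on either strand to GATAA, a motif of GATA factors, or to the TATA box letters TATAAA.
Skint1 promoter, chr4:112006019-112006318, plus strand: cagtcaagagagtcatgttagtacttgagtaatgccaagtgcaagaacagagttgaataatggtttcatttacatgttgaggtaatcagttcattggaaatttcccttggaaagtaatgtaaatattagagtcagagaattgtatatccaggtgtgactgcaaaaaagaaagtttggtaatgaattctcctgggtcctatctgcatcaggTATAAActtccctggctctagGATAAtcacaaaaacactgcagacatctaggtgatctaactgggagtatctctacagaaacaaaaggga
Skint7 promoter, chr4:111972677-111972976, plus strand: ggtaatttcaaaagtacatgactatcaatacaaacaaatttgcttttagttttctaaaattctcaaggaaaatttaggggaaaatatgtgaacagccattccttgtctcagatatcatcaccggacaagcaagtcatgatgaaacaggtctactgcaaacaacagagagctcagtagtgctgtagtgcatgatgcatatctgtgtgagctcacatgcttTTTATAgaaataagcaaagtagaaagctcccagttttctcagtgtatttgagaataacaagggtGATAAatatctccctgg
Skint4 start 1 promoter, chr4:112071766-112072065, plus strand: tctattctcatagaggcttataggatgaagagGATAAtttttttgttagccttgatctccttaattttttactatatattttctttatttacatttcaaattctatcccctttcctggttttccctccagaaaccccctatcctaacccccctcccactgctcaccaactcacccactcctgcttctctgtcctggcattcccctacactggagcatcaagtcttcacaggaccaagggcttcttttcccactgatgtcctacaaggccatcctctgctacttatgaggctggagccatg
Skint4 start 2 promoter, chr4:112081220-112081519, plus strand: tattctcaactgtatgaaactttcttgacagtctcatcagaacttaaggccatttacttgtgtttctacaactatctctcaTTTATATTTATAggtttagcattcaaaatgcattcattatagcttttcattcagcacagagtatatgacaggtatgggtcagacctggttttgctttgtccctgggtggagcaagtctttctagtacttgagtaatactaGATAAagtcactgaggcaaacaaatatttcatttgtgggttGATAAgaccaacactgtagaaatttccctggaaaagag

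The TATA box match began at position -40 in Skint1 and at -31 in Skint7, counted from the annotated start. Skint4 start 1 had no TATAAA match, and Skint4 start 2 had 2 adjoining matches at -169 and -163. TATAAA on either strand was found in 7 of the 11 windows, against 13.6% of 32851 mouse promoter windows of the same length. GATAA was found in 9 of the 11, against 25.4% of all windows. The GC content of the Skint windows was 35.3% to 44.3%, below the median of 52.7% over all windows, and these AT-rich motifs occur more often in AT-rich sequence. CACCC (KLF) was found in 7 of 11 windows, against 57.5% of all. The GC box GGGCGG was found in 0 of 11 against 35.7%, the AP-1 motif TGANTCA in 0 of 11 against 7.81%, and the p63-type motif in 0 of 11 against 0.712%. A match describes letters only, and the absence of one says only that these letters were not in this window.

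Near-identical copies limit how far members can be separated. The Skint6 and Skint5 windows, printed next, were identical at 269 of 300 positions (89.7%) without a gap, and capitals mark the 31 bases that differ.
Skint6 promoter, chr4:113286924-113287223, minus strand: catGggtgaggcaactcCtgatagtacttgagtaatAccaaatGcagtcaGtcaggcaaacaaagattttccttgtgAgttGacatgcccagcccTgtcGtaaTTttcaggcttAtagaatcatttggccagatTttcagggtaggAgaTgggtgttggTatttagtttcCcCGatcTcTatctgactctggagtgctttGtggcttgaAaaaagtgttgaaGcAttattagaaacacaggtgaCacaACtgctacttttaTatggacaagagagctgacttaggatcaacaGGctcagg
Skint5 promoter, chr4:113999454-113999753, minus strand: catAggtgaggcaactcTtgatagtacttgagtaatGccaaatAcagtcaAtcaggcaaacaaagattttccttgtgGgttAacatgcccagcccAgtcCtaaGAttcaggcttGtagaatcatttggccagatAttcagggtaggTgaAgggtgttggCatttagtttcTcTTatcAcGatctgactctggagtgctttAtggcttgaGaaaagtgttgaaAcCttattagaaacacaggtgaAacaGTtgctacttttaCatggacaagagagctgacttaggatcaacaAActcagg

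Skint8 and Skint7 shared 84.1% of 132 aligned columns, and Skint4 start 2 and Skint3 shared 77.5% of 244. Skint10 shared 82.0% of 256 with Skint11 and 82.1% of 168 with Skint9. These windows lie mostly before the start, and the likeness of the transcripts was not measured. The sources used here do not give how reads that fit several copies were counted, so values of similar members may include each other's reads. The predicted genes Gm12816 and Gm12818 lie within Skint6 and Gm18400 within Skint10, and the strand setting of the counting is also not given. Skint6 and Skint10 values are uncertain for that reason.

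Most Skint genes were higher in EpdSC than in HFSC, and Skint4 was lower. In aged mice 5 members were higher in EpdSC and 1, Skint4, was lower (edgeR quasi-likelihood test, Benjamini-Hochberg adjusted p under 0.05). Over all genes tested, 12.2% were called higher and 11.9% lower in this comparison. In young mice 9 members were higher and Skint4 was lower, against 13.0% and 13.1% of all genes. The median log2 fold change of the 10 members was 1.23 in aged and 2.53 in young mice, while the median over all genes was -0.09 in aged and -0.06 in young mice. Young and aged values come from separate libraries of both populations.

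Skint1 (ENSMUSG00000089773.7), the member needed for epidermal T cell selection, had 145.1 and 132.1 CPM in aged EpdSC and 5.37 and 7.64 CPM in aged HFSC. In young mice it had 143.4 and 154.4 CPM in EpdSC and 1.03 and 2.16 CPM in HFSC. EpdSC libraries were higher without overlap at both ages, with a log2 fold change of 4.41 in aged mice (edgeR adjusted p = 3.041e-07, SE 0.261) and 6.56 in young mice (edgeR adjusted p = 4.902e-08, SE 0.302). Skint7 had 88.1 and 87.2 CPM in aged EpdSC against 2.28 and 1.45 CPM in aged HFSC, and 95.8 and 134.4 CPM in young EpdSC against 0.63 and 1.34 CPM in young HFSC. Its log2 fold change was 5.55 in aged mice (edgeR adjusted p = 1.932e-07, SE 0.306) and 6.89 in young mice (edgeR adjusted p = 6.377e-08, SE 0.334). Skint6 had 85.9 and 62.4 CPM in aged EpdSC against 7.91 and 8.29 CPM in aged HFSC, and 71.3 and 100.2 CPM in young EpdSC against 0.57 and 4.84 CPM in young HFSC. Its log2 fold change was 3.19 in aged mice (SE 0.533) and 5.02 in young mice (SE 0.598). Among Skint1 to Skint10 these 3 had the largest fold changes in favour of EpdSC at both ages. Without the second young HFSC library the Skint6 value in young mice was 7.23.

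Markers of differentiating epidermis were also measured. The 7 suprabasal markers summed to 2902 and 3285 CPM in aged EpdSC against 334.6 and 420.6 CPM in aged HFSC, and to 1925 and 2070 CPM in young EpdSC against 140.7 and 231.2 CPM in young HFSC. Single markers ran both ways, and at both ages 5 were called higher and 1 lower in EpdSC. Over all genes, 12.2% were called higher and 11.9% lower in aged mice, and 13.0% and 13.1% in young mice. The part of these markers in the Skint differences was not tested.

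Skint4 (ENSMUSG00000055960.12) ran the other way. It had 33.4 and 41.2 CPM in aged EpdSC against 86.7 and 110.4 CPM in aged HFSC, and 26.9 and 35.4 CPM in young EpdSC against 89.2 and 103.9 CPM in young HFSC. Every HFSC library was higher than every EpdSC library, and the log2 fold change was -1.40 in aged mice (edgeR adjusted p = 0.000207, SE 0.191) and -1.63 in young mice (edgeR adjusted p = 5.926e-05, SE 0.193). Skint4 therefore took 8.04% and 10.6% of the family's summed CPM in aged EpdSC and 65.6% and 68.6% in aged HFSC. In young mice it took 6.79% and 7.07% in EpdSC and 90.7% and 81.4% in HFSC. These shares are of reads, which also depend on transcript length. Marker sums of other cells were higher in the same HFSC libraries. The 8 upper hair follicle markers summed to 411.6 and 575.2 CPM in aged EpdSC against 1271 and 2041 CPM in aged HFSC, and to 495.5 and 433.0 CPM in young EpdSC against 994.1 and 1239 CPM in young HFSC. Single upper hair follicle markers ran both ways, and 7 were tested. In aged mice 1 was called higher and 2 lower in EpdSC, against 12.2% and 11.9% of all genes. In young mice 2 were called higher and 1 lower, against 13.0% and 13.1%. In young mice 4 of the 7 had log2 fold changes above 0. Melanocyte markers summed to 12.1 to 19.6 CPM in the 4 EpdSC libraries against 187.7 to 257.3 CPM in the 4 HFSC libraries, and fibroblast markers to 1.24 to 5.93 CPM against 52.3 to 84.5 CPM. Their part in the Skint4 difference was not tested.

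**Figure D1:**
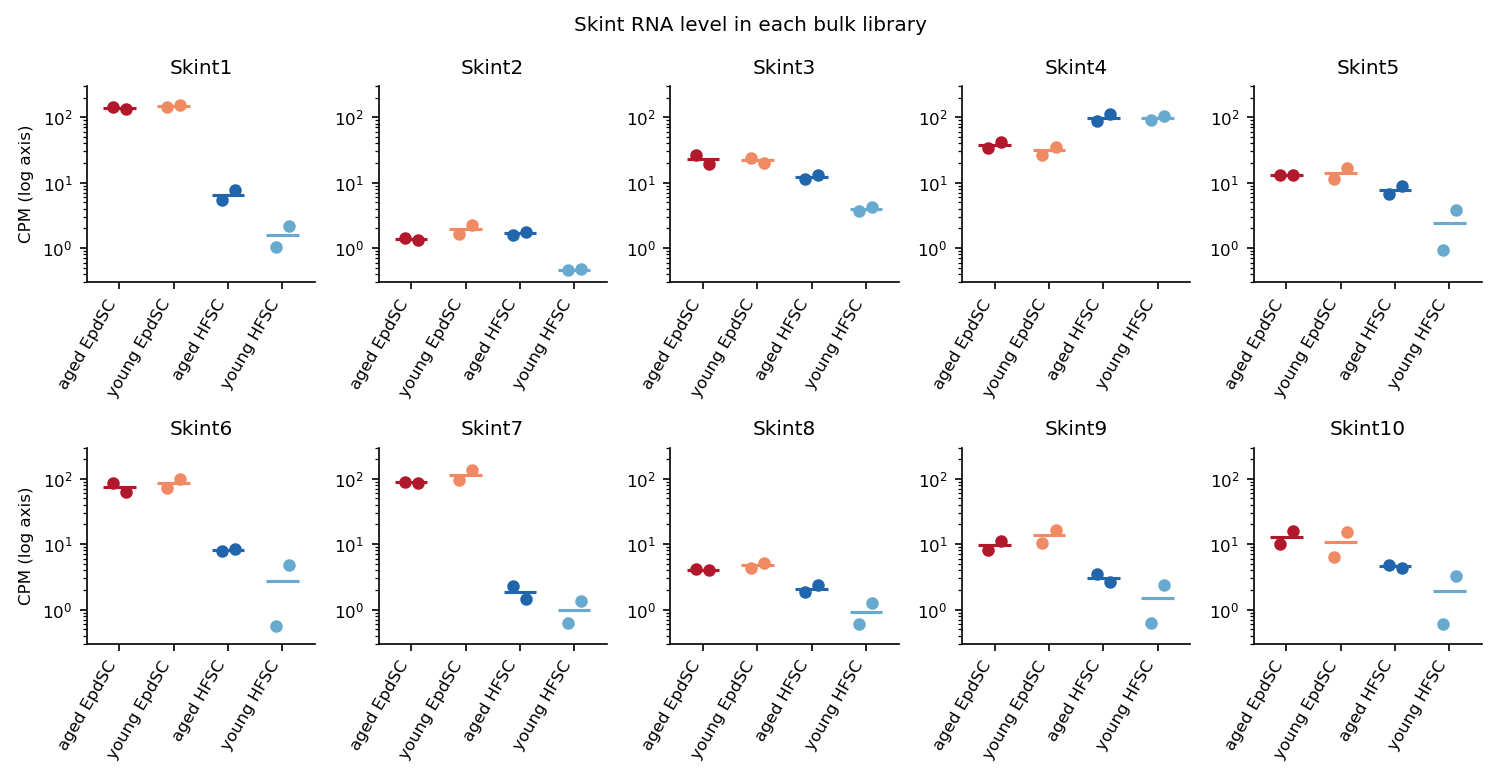
CPM of each Skint gene (log axis) in each of the 8 bulk RNA libraries, with points for libraries and a line for the mean of 2. Skint4 alone was higher in HFSC than in EpdSC at both ages, and Skint1, Skint6 and Skint7 showed the widest gap in favour of EpdSC.

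The remaining members had smaller differences. Skint3 had 26.3 and 19.5 CPM in aged EpdSC against 11.3 and 13.2 CPM in aged HFSC, and 24.1 and 20.1 CPM in young EpdSC against 3.73 and 4.21 CPM in young HFSC. Its log2 fold change was 0.90 in aged mice (edgeR adjusted p = 0.00982, SE 0.217) and 2.48 in young mice (edgeR adjusted p = 9.774e-06, SE 0.233). Skint9 was higher in EpdSC by 1.66 in aged mice (edgeR adjusted p = 0.0213, SE 0.462) and by 3.2 in young mice (edgeR adjusted p = 0.000516, SE 0.499) on the log2 scale. Skint5, Skint8 and Skint10 were called in young mice, with log2 fold changes of 2.55, 2.35 and 2.51, and not in aged mice, where their values were 0.73, 0.96 and 1.51. Skint2, with 0.466 to 2.24 CPM in all libraries, was called in young mice at 2.04 (SE 0.5) and had -0.28 (SE 0.464) in aged mice. Several of these calls rested on single libraries. In aged mice Skint3 was not called without the first EpdSC library (0.691, edgeR adjusted p = 0.121) or the first HFSC library (0.795, edgeR adjusted p = 0.0727), and Skint9 was not called without the second EpdSC library (1.47, edgeR adjusted p = 0.0964) or the second HFSC library (1.53, edgeR adjusted p = 0.0892). In young mice Skint10 was not called without the second EpdSC library (1.75, edgeR adjusted p = 0.0638), and Skint2 had an edgeR adjusted p of 0.0615 without that library and of 0.0536 and 0.0569 without the first and the second HFSC library. Without the second young HFSC library the values of Skint5, Skint9 and Skint10 were 3.88, 4.41 and 4.18. The difference between the ages is tested through the age effects below.

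With age, 2 Skint genes rose in HFSC and none was called in EpdSC. Skint1 averaged 6.50 ± 1.61 CPM in aged HFSC and 1.60 ± 0.800 CPM in young HFSC (SD, n = 2 each), with a fitted log2 fold change of 2.05 (edgeR adjusted p = 0.0181, SE 0.287). Skint3 averaged 12.3 ± 1.34 CPM in aged HFSC and 3.97 ± 0.340 CPM in young HFSC, with a fitted log2 fold change of 1.63 (edgeR adjusted p = 0.0181, SE 0.230). These 2 of 10 members were called, against 0.294% of all genes called higher and 0.0745% called lower. All 10 fitted values were above 0, with a median of 1.44, against a median of 0.02 over all genes. In 9 of the 10 both aged HFSC libraries were above both young ones, which held for 18.0% of all genes. The exception was Skint4, whose log2 fold change was 0.03 (edgeR adjusted p = 0.999, SE 0.187).

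The call for these 2 genes rested on single libraries. Without the second aged HFSC library neither was called, with adjusted p of 0.0667 for Skint1 and 0.0761 for Skint3. With only the 4 HFSC libraries fitted, the adjusted p was 0.173 for Skint1 and 0.0795 for Skint3. Without the first young HFSC library Skint3 had an adjusted p of 0.0512. That young library had the lower value for every member, for example 0.57 CPM of Skint6 beside 4.84 CPM in the second young library. Over all 15 alternatives the log2 fold change stayed at 1.56 to 2.63 for Skint1 and at 1.52 to 1.73 for Skint3. Without the first young library, the log2 fold change of Skint6 was 0.721 in place of 1.62, and without the second it was 3.81.

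Marker sums of several other cell classes were also higher in both aged HFSC libraries than in both young ones. The 7 suprabasal keratinocyte markers summed to 334.6 and 420.6 CPM in aged HFSC and to 140.7 and 231.2 CPM in young HFSC. Krt1, a keratin of differentiating epidermis, had 60.6 and 76.8 CPM in aged HFSC and 2.70 and 18.0 CPM in young HFSC. The 8 upper hair follicle markers summed to 1271 and 2041 CPM in aged HFSC and 994.1 and 1239 CPM in young HFSC, and the 7 sebaceous gland markers to 387.9 and 483.9 CPM in aged HFSC and 180.3 and 207.4 CPM in young HFSC. T cell markers summed to 3.89 and 4.71 CPM in aged HFSC and 2.16 and 2.01 CPM in young HFSC. Pericyte and muscle markers gave 6.91 and 17.7 against 4.1 and 5.08 CPM. Merkel markers gave 3.96 and 8.00 against 3.13 and 1.85 CPM. The melanocyte sum ran the other way, with 187.7 and 200.5 against 211.5 and 257.3 CPM. Of the 6 melanocyte markers, however, 5 had log2 fold changes above 0 with age, with a median of 0.80 and none called. Of the suprabasal, upper hair follicle and sebaceous gland lists only Far2, a sebaceous gland marker, was called with age. Acta2 of the pericyte and muscle list was also called, and of 8 basal epidermal markers only Ly6d. The part of these transcripts in the Skint values was not tested.

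In EpdSC no member was called with age, by edgeR or by DESeq2, and none had an unadjusted p under 0.05, against 0.0839% of all genes called by edgeR (0.0559% higher and 0.0280% lower), 0.495% called by DESeq2 and 4.46% with an unadjusted edgeR p under 0.05. Log2 fold changes ran from -0.49 for Skint2 to 0.26 for Skint4. Skint1 averaged 138.6 ± 9.17 CPM in aged EpdSC and 148.9 ± 7.73 CPM in young EpdSC, a log2 fold change of -0.10 (SE 0.221). Skint7 averaged 87.7 ± 0.653 CPM in aged EpdSC and 115.1 ± 27.3 CPM in young EpdSC, a log2 fold change of -0.39 (SE 0.237). Both values lie within 2 SE of 0, so a change was not detectable at this spread.

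The difference of the age effects, HFSC minus EpdSC, was tested directly. No member was called, against 0.00466% of all genes, and 8 of the 10 had an unadjusted p under 0.05, against 4.57% of all genes. DESeq2 called Skint1 and Skint3, against 0.601% of all genes to which it gave an adjusted p. Skint1 had the smallest p, with a difference of 2.15 on the log2 scale (edgeR adjusted p = 0.121, SE 0.363), followed by Skint3 with 1.58 (edgeR adjusted p = 0.226, SE 0.313). Skint4 had -0.23 (SE 0.266). The same number is the change of the EpdSC and HFSC gap from age to age, so the smaller gap in aged mice was not called for any member.

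**Figure D2:**
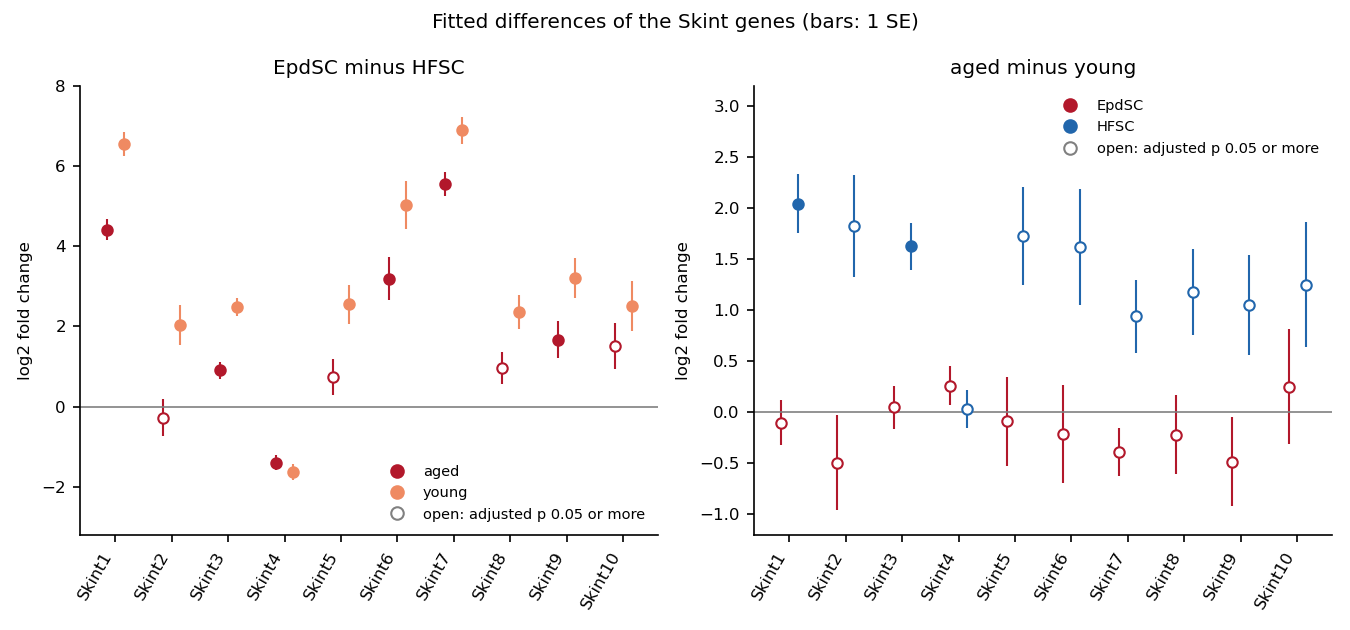
Fitted log2 fold changes of the 10 Skint genes with 1 SE, EpdSC minus HFSC on the left and aged minus young on the right. Filled points had an edgeR adjusted p under 0.05. The EpdSC gap was positive for all members but Skint4 in young mice, and the age effect in HFSC was near 0 for Skint4 alone.

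The genes most like Skint1 and Skint4 over the 8 libraries were ranked by Pearson's r of log2 CPM among 10807 genes. For Skint1 they were Extl1 (r = 0.9985), Wnt3a (0.9978), a secreted Wnt ligand, Smoc2 (0.9978), a matricellular protein, Oat (0.9964), an ornithine-metabolising enzyme, and Rasa3 (0.9963), a Ras GTPase-activating protein. For Skint4 they were Tcaf2 (0.9966), Slc46a1 (0.9963), a folate transporter, Pole4 (0.996), a DNA polymerase subunit, Sphkap (0.9958) and Atp8a2 (0.9955), a phospholipid-transporting ATPase. The 8 libraries fall into 2 populations, and each r mainly follows that split. Mean levels of Wnt3a were 49.4 and 39.6 CPM in aged and young EpdSC, and 1.41 and 0.188 CPM in aged and young HFSC.

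Some keratinocyte signals to T cells were also higher in EpdSC. Of 20 keratinocyte signals, 13 were tested. In aged mice 5 were higher in EpdSC and none lower, with a median log2 fold change of 0.57, and in young mice 7 were higher and none lower, with a median of 0.85. Of all genes, 12.2% were higher and 11.9% lower in aged mice, and 13.0% were higher and 13.1% lower in young mice. H60c, a stress ligand for the receptor NKG2D, had 109.6 and 112.7 CPM in aged EpdSC against 18.1 and 28.4 CPM in aged HFSC, and 67.4 and 103.7 CPM in young EpdSC against 13.5 and 24.2 CPM in young HFSC. Its log2 fold change was 2.26 in aged mice (edgeR adjusted p = 0.000166, SE 0.299) and 2.18 in young mice (edgeR adjusted p = 0.000193, SE 0.300). Ulbp1, another ligand of that receptor, was higher in EpdSC by 2.64 (SE 0.384) in aged and 3.2 (SE 0.452) in young mice on the log2 scale. Il18, a cytokine, was called in aged mice at 2.68 (SE 0.557). Ccl27a, a chemokine that binds the receptor Ccr10 of skin T cells, was called in young mice at 2.15 (SE 0.287), as were Il7, a T cell growth factor, at 1.71 and Cxadr, which binds the co-receptor Jaml, at 0.69. Cdh1, the cadherin of keratinocyte junctions, and Plxnb2, a receptor of the T cell protein CD100, were higher in EpdSC at both ages by 0.49 to 0.69. None of the 13 was called with age in either population.

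Of 24 T cell genes fixed as a list, 17 were tested. Ahr, a ligand-activated transcription factor that keratinocytes also make, was higher in EpdSC by 3.24 (SE 0.172) in aged and 3.61 (SE 0.175) in young mice on the log2 scale, Sema4d, which encodes CD100, by 1.61 and 2.15, and Il2rg, the common cytokine receptor chain, by 4.53 and 3.93. Fgf7, a growth factor for keratinocytes, was lower in aged EpdSC than in aged HFSC, with a log2 fold change of -4.90 (SE 1.55). No other gene of the list was called between the populations and none with age. The median log2 fold change of the list was 0.19 in aged and 1.08 in young mice for EpdSC minus HFSC. Ccr10 had mean levels of 1.46 to 2.60 CPM.

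Of 13 butyrophilin relatives, 9 were tested. The relative Skint11 had 34.9 and 37.0 CPM in aged EpdSC against 2.15 and 3.06 CPM in aged HFSC, and 30.7 and 39.4 CPM in young EpdSC against 0.37 and 1.38 CPM in young HFSC. It was called at both ages, with log2 fold changes of 3.78 (SE 0.370) and 5.37 (SE 0.421). Btnl6 was lower in aged EpdSC than in aged HFSC at -7.30 (SE 2.06), with group means of 0 to 0.644 CPM. Ermap, a blood group protein, Btn2a2 and Btnl9 had means of 1.38 to 2.06, 0.03 to 1.45 and 0.23 to 0.88 CPM and were not called. No relative was called with age. The list's median log2 fold change was -1.09 in aged and 0.17 in young mice.

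The single-cell libraries placed Skint transcripts in different cell classes. After filters, 4468 aged and 4035 young cells remained, with medians of 2271 and 3919 unique molecular identifiers (UMIs). Cells were clustered without Skint genes, and classes were named from marker lists. Skint1, Skint5, Skint6 and Skint7 were highest in suprabasal keratinocyte-like cells, and Skint2, Skint3, Skint4, Skint8, Skint9 and Skint10 in upper hair follicle-like cells, in both libraries. The doublet caller marked 1 aged and 3 young cells, too few to count as working, so doublets were in effect not removed. The libraries shared 33 cell barcodes. With 1 library per age, no test was made, and intervals cover counting error only.

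Skint1 had 104.4 CPM of UMIs (95% interval 91.5 to 118.6) in aged and 124.4 (111.5 to 138.3) in young suprabasal-like cells. The next class was upper hair follicle-like cells, with 55.8 (33.6 to 87.2) and 102.3 (87.6 to 118.8) CPM, whose interval overlapped that of suprabasal-like cells in the young library. In basal interfollicular keratinocyte-like cells it had 50.7 and 58.6 CPM, and in hair follicle bulge-like cells 12.3 and 3.42 CPM, in the aged and young library. Hair germ and outer root sheath-like cells had 42.8 and 72.3 CPM of it. Sebaceous gland-like cells held 0 and 1 UMI of Skint1, and 0 of 250994 UMIs allows up to 11.95 CPM at 3 counts, or 14.7 CPM as the exact 95% upper bound. Skint7 had basal-like cells as its next class, with 48.9 (40.2 to 58.9) and 73.0 (63.2 to 83.8) CPM in suprabasal-like, 29.0 and 49.6 CPM in basal-like, and 5.88 and 5.95 CPM in upper hair follicle-like cells. Skint6 had 30.4 and 81.3 CPM in suprabasal-like and 0.406 and 3.74 CPM in basal-like cells. The Skint6 interval overlapped that of upper hair follicle-like cells, the next class, in the aged library. Skint5 had 29 and 62 UMIs in suprabasal-like cells and 1 and 2 in basal-like cells, and its intervals overlapped those of the next class in both libraries. Barcodes with 1 to 50 UMIs, which hold mostly free RNA, gave Skint1 55.9 CPM in the aged and 89.1 CPM in the young library. The Skint1 levels of basal-like and of hair germ and outer root sheath-like cells lie below these values in both libraries. Skint7 had 28.3 CPM in aged free RNA, inside its aged basal-like interval of 24.5 to 34.2 CPM. In young free RNA it had 39.0 CPM, below its young basal-like interval of 44.1 to 55.6 CPM. The part of free RNA in these levels was not tested.

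In the upper hair follicle, Skint2 had 38.2 (20.3 to 65.3) CPM in the aged and 53.0 (42.5 to 65.2) CPM in the young library, with at most 2.05 and 5.56 CPM in any other class. Skint3 had 102.9 (71.7 to 143.1) and 115.4 (99.7 to 132.8) CPM there. Skint8 had 32.3 and 24.99 CPM there, and 3.97 and 7.30 CPM in suprabasal-like cells, the next class. Skint9 had 91.1 and 209.4 CPM there, and 34.8 and 125.5 CPM in suprabasal-like cells. Skint10 had 32.3 and 60.7 CPM there and 9.25 and 31.4 CPM in suprabasal-like cells. Krt79, Cst6, Defb6 and Krt17 led this class, which is the part of the follicle above the bulge.

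Skint4 was found in several follicle classes. It had 82.3 (54.7 to 118.9) CPM in aged and 111.8 (96.4 to 129.0) CPM in young upper hair follicle-like cells, and 61.8 (47.1 to 79.5) and 93.6 (75.3 to 115.1) CPM in unnamed cluster 10, led by Tm4sf1, Fst and Aldh3a1, with overlapping intervals in both libraries. Bulge-like cells, led by S100a4, Cd34 and Krt24, had 47.1 (29.9 to 70.7) and 29.6 (19.3 to 43.4) CPM of Skint4. Sebaceous gland-like cells had 27.9 and 35.2 CPM, from 7 and 10 UMIs. Outside the follicle, suprabasal-like cells had 15.9 and 27.4 CPM, from 36 and 75 UMIs, and basal-like cells had 1.83 and 1.87 CPM. Free RNA held 13.0 CPM of Skint4 in the aged and 38.3 CPM in the young library. The young bulge-like, sebaceous-like and suprabasal-like levels lie below the free RNA level of that library. The aged bulge-like interval lies above the aged free RNA level, and the aged sebaceous-like interval of 11.2 to 57.5 CPM includes it. Intervals of hair germ and outer root sheath-like cells include the free RNA level in both libraries. How much of a cell's UMIs is free RNA was not measured. These values therefore do not decide whether the young cells of these classes express Skint4. Among the members, Skint4 had 23 and 26 UMIs in bulge-like cells, against at most 6 and 3 UMIs for any other. In bulk, Skint4 was also the one member called higher in HFSC, which were sorted for CD34, than in EpdSC.

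**Figure D3:**
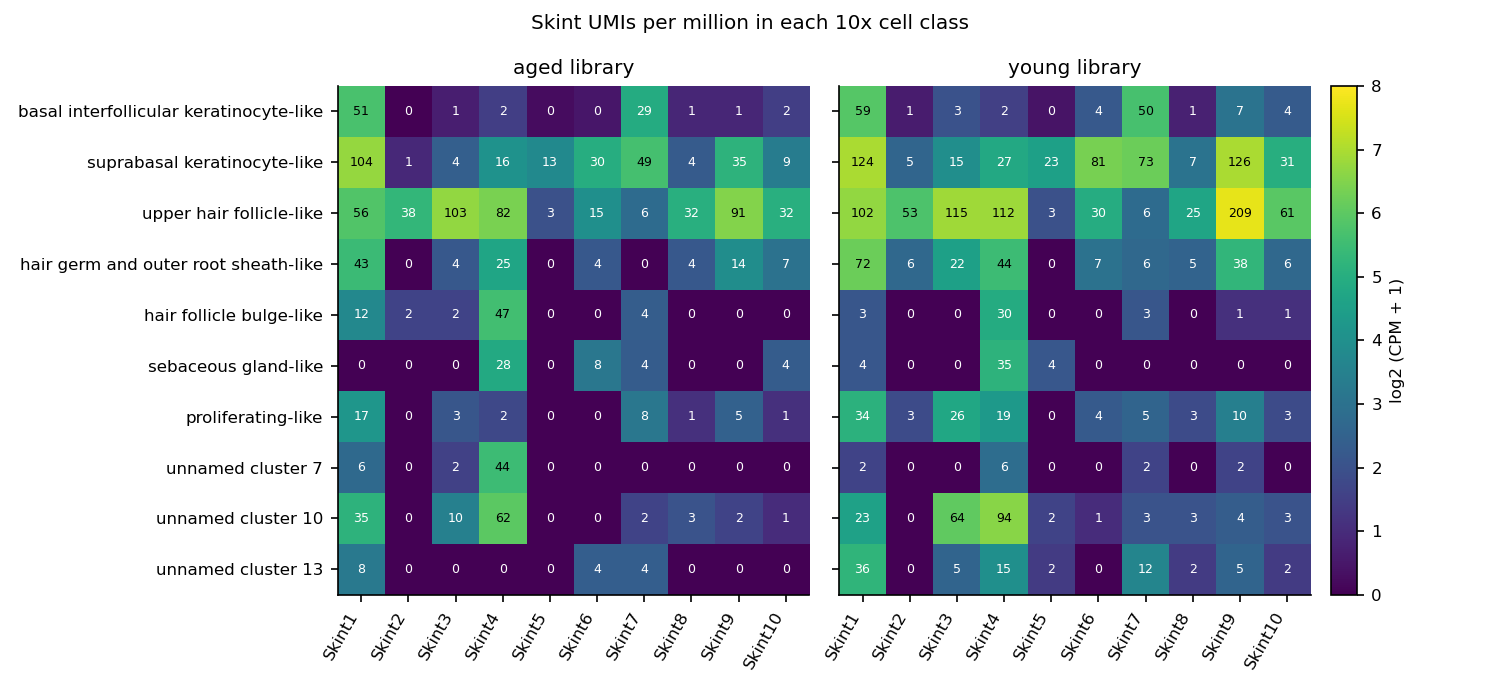
UMI CPM of each Skint gene (colour and rounded number) in each 10x cell class, in the aged library on the left and the young library on the right. Skint1 and Skint7 appear in basal-like and suprabasal-like rows, and Skint1 also in the upper hair follicle-like and hair germ and outer root sheath-like rows. Skint2, Skint3 and Skint9 peak in the upper hair follicle-like row and Skint4 fills the follicle rows. Free RNA was not subtracted.

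Between the ages, several members were lower in aged suprabasal-like cells. Genes with at least 20 UMIs over both libraries were compared, and 9 of the 10 members were. Past 2-fold is read on the log2 ratio after adding 0.5 to each UMI count. Skint9 had a ratio of aged over young of 0.277 (95% interval 0.214 to 0.355), Skint10 0.295 (0.174 to 0.480), Skint3 0.302 (0.135 to 0.614) and Skint6 0.374 (0.281 to 0.492). These 4 were past 2-fold lower, as were 3.07% of all genes compared, and no member was past 2-fold higher, against 2.24% of all genes. Skint1 had a ratio of 0.839. Free RNA of the 4 was also lower in the aged library. Skint3 had 9.96 CPM in aged and 51.5 CPM in young free RNA, above its suprabasal-like levels of 4.41 and 14.6 CPM. Aged and young free RNA held 9.19 and 19.5 CPM of Skint6, 18.4 and 71.0 CPM of Skint9, and 6.13 and 20.9 CPM of Skint10. The part of free RNA in the ratios of this class was not tested.

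This class joined cluster 3, with 278 aged and 457 young cells, and cluster 4, with 410 aged and 26 young cells. In cluster 3 alone the ratios were 0.527 (0.405 to 0.679) for Skint9, 0.423 (0.227 to 0.738) for Skint10, 0.479 (0.194 to 1.04) for Skint3 and 0.624 (0.458 to 0.838) for Skint6. Of these, Skint10 was past 2-fold lower, as were 4.84% of all genes compared, with 2.09% higher. Skint3, with a log2 ratio of -0.99, was just short of it. Cluster 4 held 3.41 CPM of Skint9 and 10.2 CPM of Skint6 in the aged library, against 68.3 and 51.9 CPM in cluster 3 of that library, and the part of the cluster mix in the class values was not tested further. Skint1 in cluster 3 had a ratio of 1.09 (0.894 to 1.33).

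In upper hair follicle-like cells Skint9 had a ratio of 0.435 (0.291 to 0.629) and was past 2-fold lower, as were 5.54% of all genes compared, with 4.35% higher. Skint3 had a ratio of 0.891 (0.603 to 1.28), Skint4 0.736 (0.476 to 1.098) and Skint1 0.546 (0.321 to 0.879). Skint6, from 5 aged and 50 young UMIs, had 0.494 (0.154 to 1.23) and, with a log2 ratio of -0.89 after the added 0.5, was not past 2-fold. In basal-like cells Skint3, Skint6, Skint9 and Skint10 were past 2-fold lower, from 2 to 9 UMIs in the aged and 18 to 43 UMIs in the young library, as were 3.34% of all genes compared, and none was past 2-fold higher, against 2.42%. Different clusters held this class, mostly clusters 2, 8 and 14 in the aged library and clusters 0 and 1 in the young one, and cluster 1 was led by the stress genes Atf3, Fos and Jun. Free RNA moved the same way, with 18.4 CPM of Skint9 in the aged and 71.0 CPM in the young library, and its part in the low counts was not tested. In unnamed cluster 10 Skint3 had 10.3 CPM in the aged and 64.5 CPM in the young library, a ratio of 0.160 (0.0730 to 0.314), where 2.81% of all genes were past 2-fold lower and 3.3% higher. Free RNA held 9.96 CPM of Skint3 in the aged and 51.5 CPM in the young library. The aged cluster 10 interval of 4.94 to 18.9 CPM includes the aged free RNA level, and the part of free RNA was not tested. In unnamed cluster 7, led by Fam13a and Cldn10, Skint4 had 43.6 CPM in the aged and 6.24 CPM in the young library, a ratio of 6.99 (2.11 to 36.4), where 7.16% of all genes were past 2-fold higher and 6.77% lower. In cluster 7, melanocyte markers summed to 94.8 CPM in the aged and 307.9 CPM in the young library and fibroblast markers to 66.4 and 6.24 CPM, and their part in the Skint4 value was not tested. In hair germ and outer root sheath-like cells Skint3 (1 and 60 UMIs) and Skint9 (4 and 102 UMIs) were past 2-fold lower, as were 7.42% of all genes, with 6.06% higher. Skint3 was also past 2-fold lower in proliferating cells (3 and 21 UMIs), as were 3.59% of all genes, with 2.9% higher, and Skint1 in unnamed cluster 13 (2 and 22 UMIs), as were 6.07%, with 3.89% higher. Aged and young hair germ and outer root sheath-like cells had 3.57 and 22.3 CPM of Skint3 and 14.3 and 37.8 CPM of Skint9. Proliferating cells had 3.45 and 26.4 CPM of Skint3, and cluster 13 had 8.38 and 36.2 CPM of Skint1. All these levels lie below free RNA of the same gene and library, whose part was not tested. In bulge-like cells Skint4, the only member compared, had a ratio of 1.59 (0.867 to 2.90), where 3.77% of all genes were past 2-fold higher and 4.7% lower. These 10x values come from another sort than the EpdSC libraries, in which no member was called with age.

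**Figure D4:**
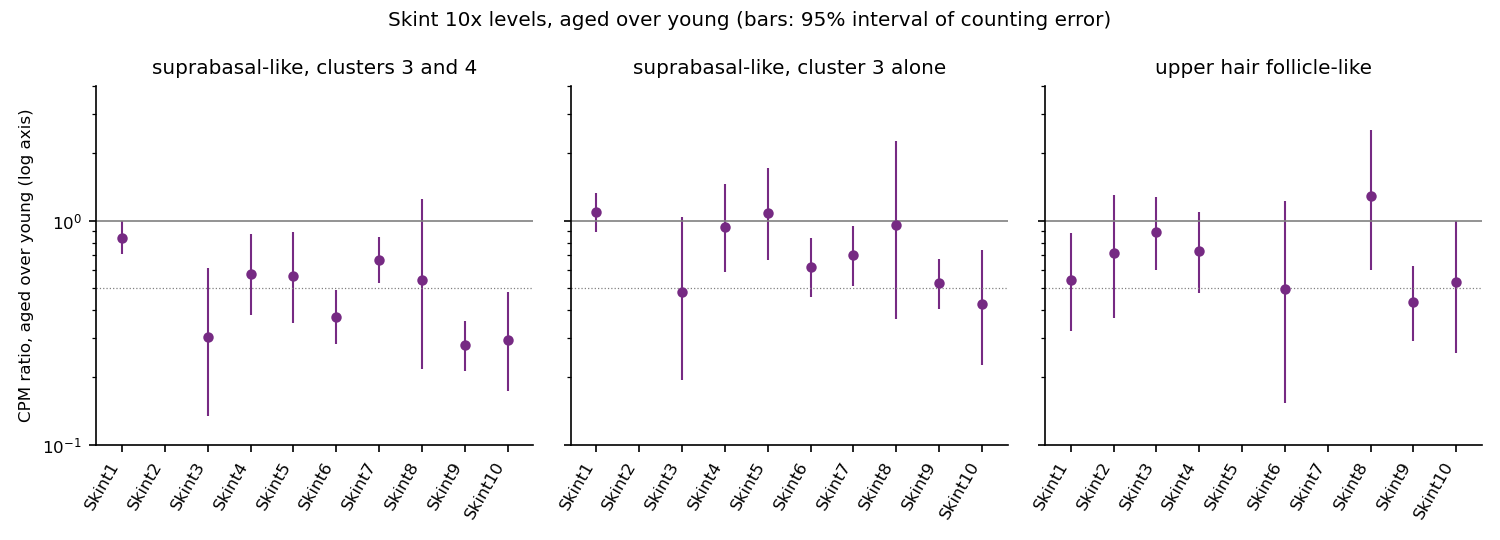
Ratio of UMI CPM, aged over young (log axis), of Skint genes with at least 20 UMIs in all suprabasal-like cells, in cluster 3 alone and in upper hair follicle-like cells, with 95% intervals of counting error. The line marks 1 and the dotted line 0.5. Skint9 and Skint10 sit below 1 in all 3 panels, and in cluster 3 most ratios are closer to 1 than in the whole class.

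Chromatin at Skint starts was more open in EpdSC for most members. ATAC-seq counts transposase insertions into open chromatin, and counts within 1000 bases of each start were divided by the library total. In young mice 8 of the 11 starts were past 2-fold higher in EpdSC, against 10.9% of all promoters compared. In aged mice 7 were, against 40.9% of all promoters, and Skint2 was past 2-fold lower at -1.235 (-2.27 to -0.172), as were 7.12% of all promoters. No start was past 2-fold lower in young mice, against 7.78% of all promoters. The median promoter had a log2 ratio of 0.86 in the aged and 0.06 in the young pair. The aged HFSC library held 8243611 counts, against 22933001 to 37322834 in the others, so its values are the least precise.

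The Skint1 start had 11.5 CPM in aged EpdSC and 1.94 CPM in aged HFSC, a log2 ratio of 2.52 (95% interval 1.84 to 3.39). It had 14.0 CPM in young EpdSC and 2.79 CPM in young HFSC, a log2 ratio of 2.32 (1.97 to 2.70). The Skint7 start had 214 counts in young EpdSC and 12 in young HFSC, a log2 ratio of 3.59 (2.81 to 4.62), and 113 and 1 in the aged pair. Skint8, Skint3, Skint6, Skint5 and Skint10 starts had log2 ratios of 3.90, 3.23, 2.85, 2.40 and 1.03 in the young pair. Skint9 and Skint2 starts, with 0.47 and 0.39, had intervals that included 0.

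The Skint4 start 1 was also more open in EpdSC, although its RNA was lower there. It had 15.8 CPM in aged EpdSC and 3.03 CPM in aged HFSC, a log2 ratio of 2.36 (1.80 to 3.03), and 19.6 CPM in young EpdSC and 5.69 CPM in young HFSC, a log2 ratio of 1.78 (1.53 to 2.05). Start 2 had log2 ratios of -0.45 (-1.39 to 0.609) in aged and 0.89 (0.228 to 1.64) in young mice. A run of 3 neighbouring windows upstream ran the other way, at chr4:112057001-112058500 (mm10) between Skint1 and Skint4. The middle one, centred at -14266 from Skint4 start 1, had 1.40 CPM in aged EpdSC and 9.70 CPM in aged HFSC, and 1.45 CPM in young EpdSC and 15.1 CPM in young HFSC. Windows centred at -4389 and -4889 from the Skint10 start also had more counts in HFSC, with 0.523 and 1.13 CPM in aged EpdSC against 5.70 and 4.25 CPM in aged HFSC, and 0.536 and 0.777 CPM in young EpdSC against 6.99 and 4.66 CPM in young HFSC. Of 13 array windows with at least 4 CPM in the aged pair, 6 were past 4-fold higher and 3 past 4-fold lower in EpdSC, against 26% and 4.07% of all such windows. Of 14 array windows with at least 4 CPM in the young pair, 4 were past 4-fold higher and 5 past 4-fold lower in EpdSC, against 12.4% and 13.8% of all such windows. Which gene such a window acts on was not measured.

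**Figure D5:**
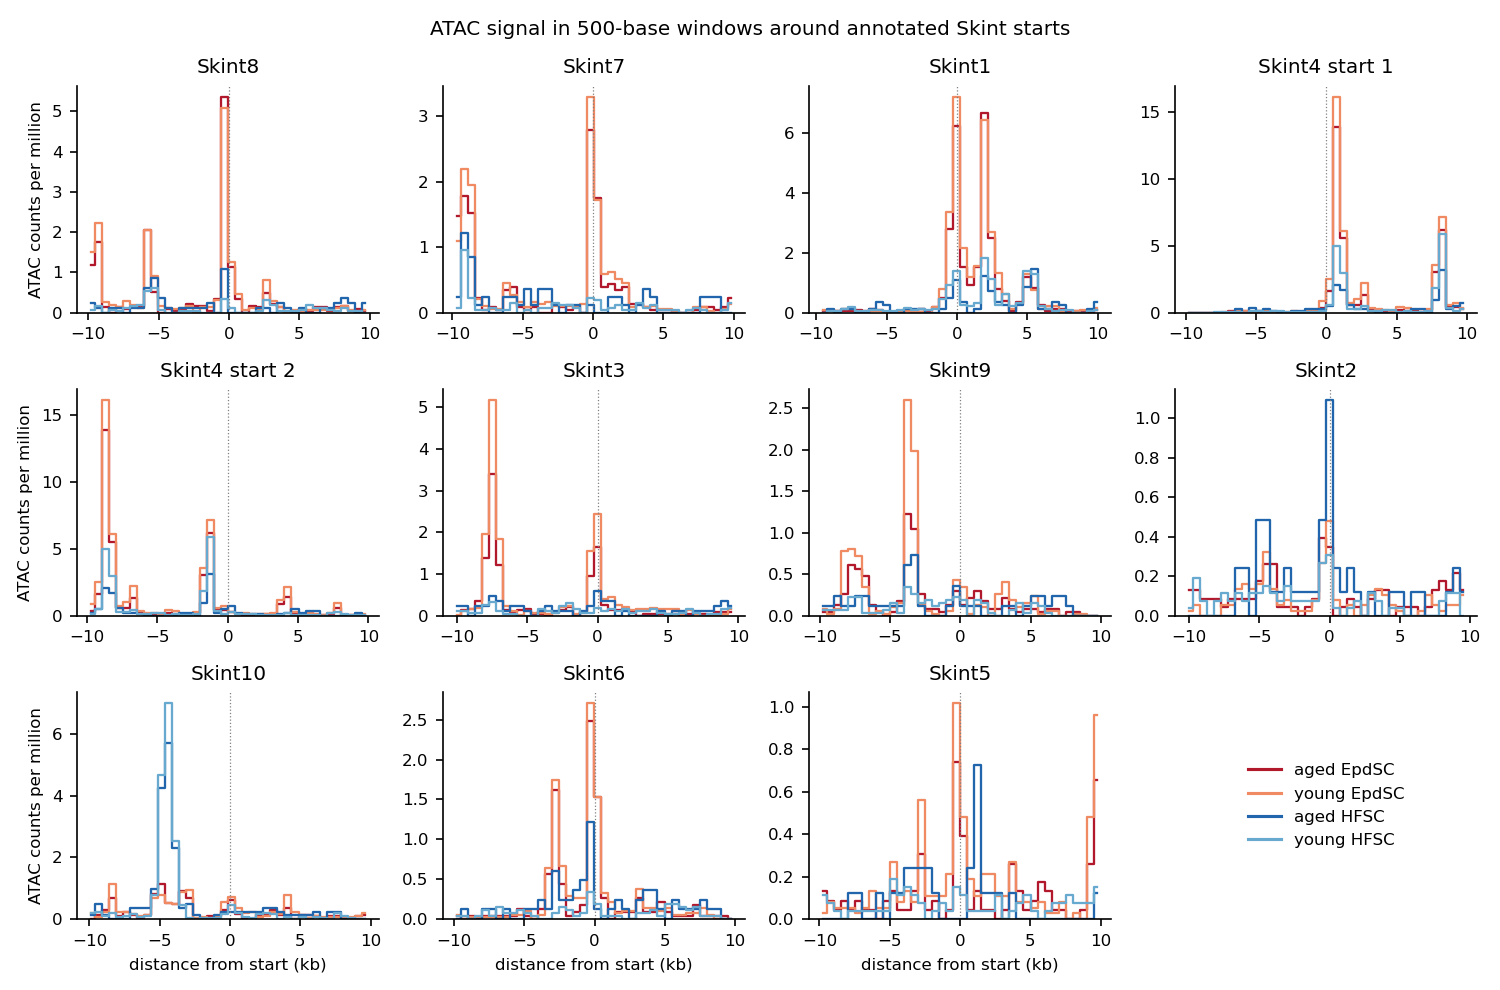
ATAC CPM in 500-base windows within 10 kb of each annotated Skint start (negative distances are upstream), for the 4 libraries. EpdSC lines peak near the starts of Skint8, Skint7 and Skint1 and just inside Skint4 start 1, while the HFSC lines peak 4 to 5 kb before the Skint10 start.

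With age, no Skint start was past 2-fold in EpdSC, where 2.36% of all promoters were past 2-fold higher and 3.99% lower. Log2 ratios there ran from -0.62 for Skint5 to 0.02 for Skint8. In HFSC the starts of Skint8, Skint3, Skint2 and Skint6 were past 2-fold higher in the aged library, with log2 ratios of 1.27 (-0.175 to 2.62), 1.55 (0.218 to 2.85), 1.501 (0.429 to 2.55) and 1.49 (0.381 to 2.58). They rested on 9 to 16 counts in aged and 12 to 18 in young HFSC, and 5.65% of all promoters were past 2-fold higher and 20.8% lower. The median promoter of the aged HFSC library had a log2 ratio of -0.63 to the young one, the Skint1 start -0.49 and Skint4 start 1 -0.89. No array window with at least 4 CPM was past 4-fold with age, of 8 compared in HFSC, where 2.66% of all windows were lower, and of 11 in EpdSC, where 0.0382% were higher.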

How the data were processed

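The authors deposited whole-number RNA-seq counts per gene, ATAC-seq counts per 500-base window in steps of 250 bases, and 10x UMI counts for 737280 barcodes a library. STAR, Bowtie, Cell Ranger and mm10 are named in the submitters' processing notes, and the sources used here give no roles, versions or strand setting. Differences in RNA were tested by edgeR 4.0.16 under R 4.3.3 (TMM scaling, filterByExpr, quasi-likelihood test, 1 fit of 8 libraries, Benjamini-Hochberg over 21464 genes, called under 0.05), which was first tested on simulated data. SE is the absolute log2 fold change over the square root of F. Only non-overlapping ATAC windows, 5267565 of 10923515, were used, with a pseudocount of 0.5 in log2 ratios and at least 20 counts over a pair. 10x barcodes were kept with at least 682.23 (aged) or 1048.64 (young) UMIs, a 10th of the 99th percentile of the 4000 deepest, with 500 genes and at most 10% mitochondrial UMIs. The labels give 4000 captured cells a library. Cells were clustered with scanpy 1.11.5 (2000 variable genes without Skint genes, 30 components, Leiden resolution 1.0). Clusters were named from the marker set with the highest mean fold, with at least 2 of its markers among the top 10 genes and 3 at 2-fold (basal cells by 3 higher markers), a rule set after seeing the clusters. Intervals are exact at 95% (Poisson for levels, binomial for ratios). Reads of 1 molecule copied by PCR cannot be told apart outside the 10x data, so intervals and floors, set at 3 counts, cover counting error only. Promoter sequences and starts came from RefSeq (GRCm38.p6), matched by symbol for all 10 genes. Members, gene lists and tests were chosen with earlier results of these data known. Named genes are the members, Skint11, called genes of each list and the 4 with the highest mean CPM, and the 5 most correlated with Skint1 and Skint4. DESeq2 1.42.0, other scalings and filters, and leaving out each library were run as alternatives.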

Additional observations from a re-analysis of the deposited data

How the results depend on the processing

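The number of members called between populations was 8 to 10 in young mice and 5 to 7 in aged mice under all 15 alternatives, and 0 were called with age in EpdSC under any. The age effect in HFSC, with 2 members called, gave 6 with no filter on low counts, 0 with only the 4 libraries compared, and 0 to 4 when each library was left out in turn. The difference of the age effects, with 0 called, gave 2 by DESeq2, 5 with no filter, and 0 to 3 when each library was left out. With an arm of 1 library, that library is assumed to vary like the other groups. Log2 fold changes that turned sign when a library was left out ranged as follows: -0.153 to 0.183 for Skint4 with age in HFSC, and in EpdSC -0.168 to 0.239 for Skint3, -0.264 to 1.04 for Skint10, -0.455 to 0.0691 for Skint6, -0.361 to 0.235 for Skint5 and -0.15 to 0.241 for Skint11. Skint starts past 2-fold higher in the aged pair fell to 4 of 11 with 2000 bases on either side, and the other window widths and the median promoter scaling kept each count within 1.5 times. By the mean CPM of both 10x libraries over the named classes, each of the 10 members kept its highest class under all 6 alternatives. Unnamed clusters were left out of that ranking, and single libraries were not ranked in it. In the young library thinned to 1000 UMIs a cell, Skint5 had 23.3 CPM in sebaceous gland-like cells, from 1 UMI. Suprabasal-like cells of that library had 22.8 CPM. With no limit on mitochondrial UMIs, levels in upper hair follicle-like cells were lower, for example 47.9 CPM of Skint9 in the aged and 150.3 CPM in the young library. Thinned to 1000 UMIs a cell, with cells under that left out, Skint9 in suprabasal-like cells had 20.4 CPM in the aged and 113.9 CPM in the young library. The cause of these changes was not tested. Replicate numbers in the labels are shared between groups, but same-numbered libraries did not deviate together in every pair (correlations -0.214 to 0.174), so the pairing is not established. The fit with a replicate block called 2 members with age in HFSC, 0 in EpdSC, 7 between populations in aged mice, 10 in young mice and 0 for the difference of the age effects. Over all genes it called 123 higher and 37 lower with age in HFSC, against 63 and 16 without the block. Those counts were 272 and 93 by DESeq2, 470 and 192 with no filter, and 7 and 2 with only the 4 libraries compared.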
